A study of Homo sapiens with 6 samples.

Results

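The 9 genes described here carry out or supply MHC class I antigen presentation: the heavy chains HLA-B, HLA-C, HLA-E and HLA-F, the light chain B2M, the peptide transporter subunits TAP1 and TAP2, and the immunoproteasome subunits PSMB8 and PSMB9. They were chosen by name from 60658 listed genes, with earlier results of these data known, and each was matched to its primary-assembly Ensembl identifier. The mRNA of 6 lines of human prostate carcinoma was sequenced, 1 library each, and gene levels were deposited as FPKM (a fragment density scaled for transcript length and library size). C4-2B, a castration-resistant line of the LNCaP family, is the parent of TaxR, a subline kept under 5 nM docetaxel, and CabR was derived from TaxR and kept under 5 nM cabazitaxel. DU145, an androgen-independent line, is likewise the parent of the docetaxel-resistant DTXR, selected with 5 nM docetaxel. The cabazitaxel-resistant CTXR was derived from DTXR and selected with 5 nM cabazitaxel. Per the labels the cells of all 6 lines were untreated before harvest. The TaxR library carries the title TaxR_old, which the labels do not explain, nor do they say whether a subline is a clone or a pool.

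Class I molecules display short peptides from inside the cell to CD8 T cells. Proteasomes cut proteins into peptides, the TAP1-TAP2 transporter moves the peptides into the endoplasmic reticulum, and the loading complex places them on a heavy chain paired with beta-2-microglobulin. Interferon-gamma raises the whole pathway and swaps the constitutive proteasome subunits for PSMB8, PSMB9 and PSMB10. Loss of class I expression is known in prostate cancer, and LNCaP-family cells are known for low class I levels.

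Each line has 1 library, so differences between individual lines carry no p-value and no check by replicates. In these comparisons "higher" and "lower" refer to a log2 ratio of (FPKM + 1) of at least 1 in size, which understates changes of genes with low FPKM. The term measured covers the 17436 genes with at least 1 FPKM somewhere among the 6 libraries. All 9 members were measured, but PSMB8 and PSMB9 reached 1 FPKM in only 3 libraries each, so their call in the DU145 sublines is partly set by that filter. Total FPKM per library was 711766 to 818430, the mitochondrial share was 17.9% to 40.7%, and read depth is unknown. Scaling all libraries to the same total moved the median log2 ratio of all genes by -0.12 in TaxR against C4-2B. Scaling without mitochondrial genes lowered the higher share of all genes called in CTXR against DU145 from 57.7% to 47.4%. All 7 C4-2B-side marker genes used (such as KLK3 and TMPRSS2) reached 1 FPKM in C4-2B, TaxR and CabR, where they summed to 2430 to 5095 FPKM, against 6.58 to 11.3 FPKM in the DU145 lineage. All 10 DU145-side markers (such as S100A6 and AXL) reached 1 FPKM in DU145, DTXR and CTXR. TaxR stood apart. All 10 DU145-side markers reached 1 FPKM there as well, against 2 in C4-2B and 3 in CabR. Over the 8 markers under 1 FPKM in C4-2B the median was 1.46% of the DU145 level, with a range of 0.36% to 5.67%. Removing the median share of DU145 from TaxR changed no call of a member: HLA-B in TaxR went from 41.5 to 39.7 FPKM, B2M from 203 to 199.3 and PSMB9 from 0.693 to 0.663. Larger shares were not tried. Of 7 immune cell markers 0 reached 1 FPKM in any library, and PTPRC, the pan-leukocyte gene, was listed at 0 in all 6. Of 6 fibroblast markers 1 to 3 reached 1 FPKM, with sums of 4.45 to 13.8 FPKM. In these bulk samples fewer cells with a transcript and less of it per cell cannot be told apart.

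The sequences in front of the genes were read for motifs that class I regulators are known to bind. They are shown for the members in which an ISRE core or an NF-kB match was found. RefSeq windows of 250 bases upstream of the annotated start (GRCh38.p14) were found for 8 of the 9 members, as 10 windows, since TAP1 and PSMB8 have more than 1 annotated start. Of these, 4 held the core of the interferon-stimulated response element, ISRE (GAAANNGAAA, either strand): B2M, HLA-F, TAP1 and TAP2. That core occurred in 3.02% of 34788 distinct upstream windows. The form with 1 spacer base (GAAANGAAA) matched in 0 of 8 members, against 2.69% of all windows. A match to the NF-kB motif was found in B2M, HLA-B, HLA-C and TAP1, against 5.21% of all windows. A gamma-activated site (TTCNNNGAA) matched in the windows of PSMB8 and TAP1, against 6.57%. The inverted CCAAT box (ATTGG), which forms part of the known class I enhanceosome module, was present in 6 of 8 members, against 32.0% of all windows, and the CRE core (TGACG) also in 6 of 8, against 21.2%. The 250 bases before PSMB9 held no ISRE core. TAP1 and PSMB9 lie head to head on opposite strands, with 487 bases between their starts at 32853704 and 32854192 of chromosome 6, and the ISRE cores and the NF-kB match in front of TAP1 lie between them. A match is a description of the letters only. The stretches that hold these matches follow, 5′ to 3′ on the strand of the gene, with ISRE and NF-kB matches in capitals. For B2M and HLA-C the longest stretch free of annotated exons is shown (chr15:44711317-44711486, plus strand, and chr6:31272131-31272342, minus strand), and for the others 30 bases around the match (HLA-B chr6:31357337-31357366, TAP1 chr6:32853816-32853845 for ISRE and chr6:32853757-32853786 for NF-kB, TAP2 chr6:32838778-32838807, HLA-F chr6:29723268-29723297). In B2M and TAP1 a pair of ISRE cores overlaps, which gives a run of 16 capitals.
B2M: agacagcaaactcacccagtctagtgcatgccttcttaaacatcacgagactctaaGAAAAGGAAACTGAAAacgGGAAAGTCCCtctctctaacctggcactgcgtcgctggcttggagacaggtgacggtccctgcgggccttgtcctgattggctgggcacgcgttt
HLA-C: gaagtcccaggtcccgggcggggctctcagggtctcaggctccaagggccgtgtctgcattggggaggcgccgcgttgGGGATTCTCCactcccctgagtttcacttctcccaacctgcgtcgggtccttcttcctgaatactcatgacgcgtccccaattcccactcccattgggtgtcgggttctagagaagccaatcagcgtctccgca
HLA-B: gcgcagcgttGGGGATTCCCCactcccctg
TAP1 ISRE: cggccgcTTTCGATTTCGCTTTCccctaaa
TAP1 NF-kB: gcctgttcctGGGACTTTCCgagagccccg
TAP2: ctggggaagcGAAAGCGAAAgctgcccgag
HLA-F: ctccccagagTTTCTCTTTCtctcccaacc

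Over all 4 sublines the signs of the ratios to the parent were opposite in the 2 lineages at the heavy chains and B2M, and not at the transporter genes. The difference between the lineages did not pass the test given further on. At the immunoproteasome genes the signs were not opposite either, but those in the C4-2B lineage rest on values near or below 1 FPKM. By sign alone, 5 of the 9 members (HLA-B, HLA-C, HLA-E, HLA-F and B2M) were below C4-2B in both of its sublines and above DU145 in both of its sublines, a pattern seen in 11.3% of measured genes. Since the members were chosen with earlier results of these data known, this count is a description only. PSMB8 and PSMB9 were above the parent in all 4 sublines, as were 11.2% of measured genes. PSMB9 was listed at 0 in C4-2B, so its sign in TaxR and CabR could not be negative. Across C4-2B, TaxR and CabR PSMB8 had 0.125, 1.16 and 0.737 FPKM and PSMB9 0, 0.693 and 0.602, so these signs are uncertain. TAP1 and TAP2 followed neither pattern. In CabR and CTXR alone their signs were opposite, with log2 ratios of -0.33 and 1.29 for TAP1 and 0.45 and -0.11 for TAP2. By the size rule no member was both lower in CabR and higher in CTXR, against 0.533% of measured genes. Both sublines of a lineage are compared with the same parental library, so their signs are not independent.

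**Figure D1:**
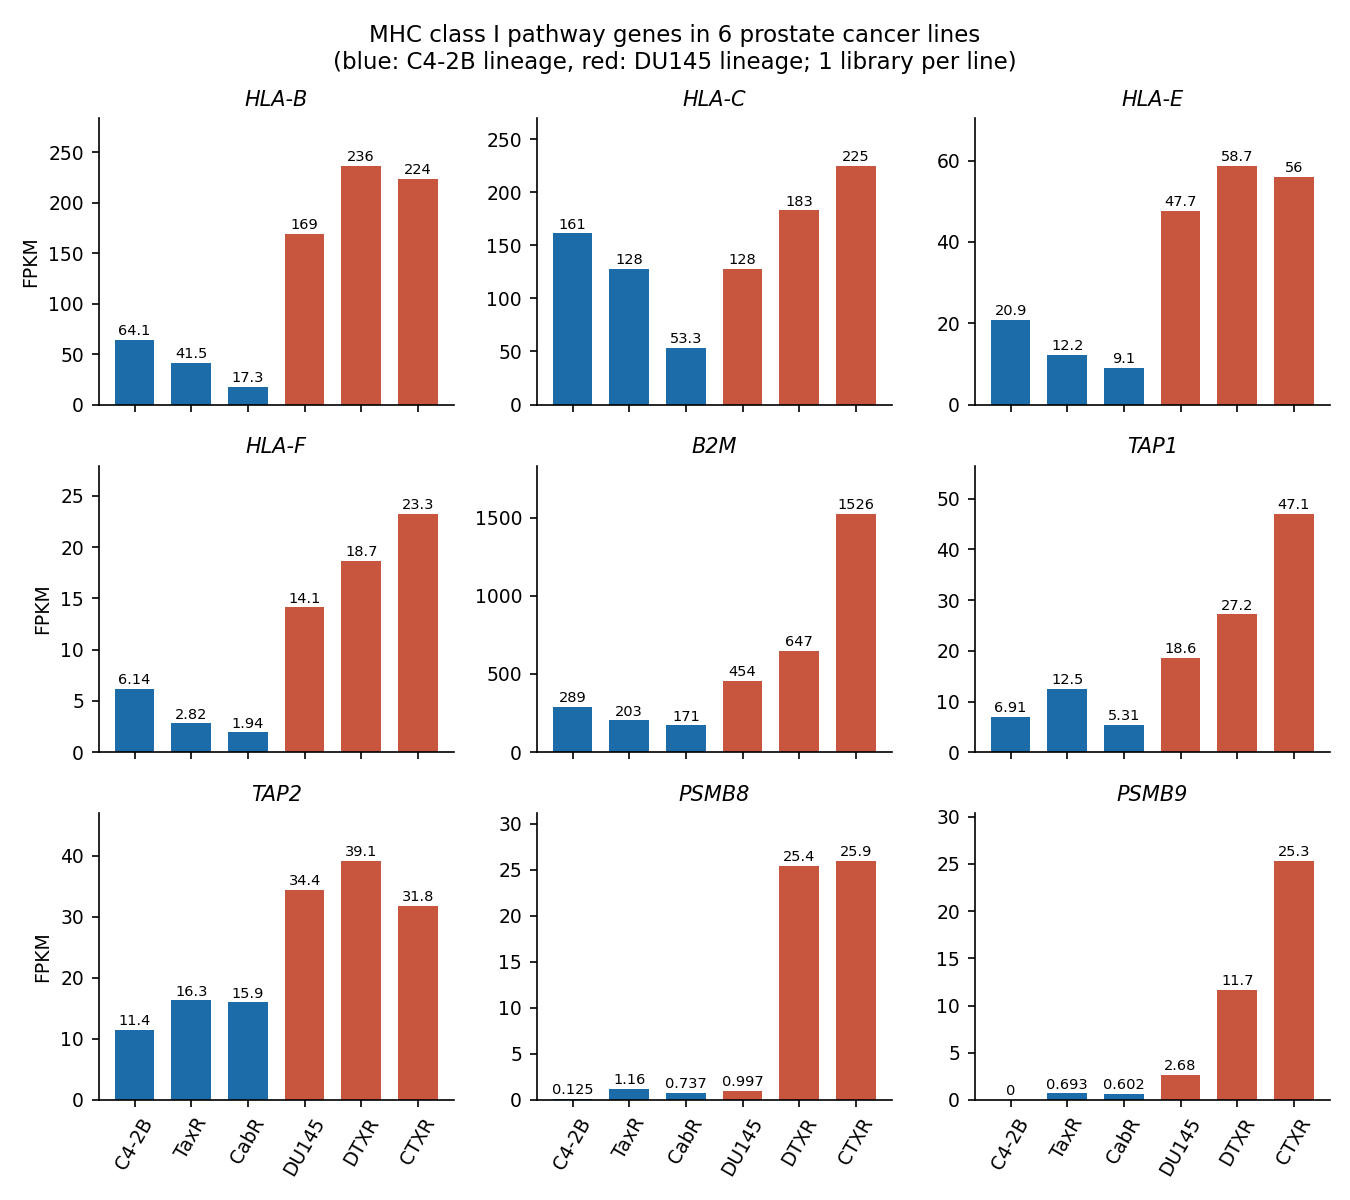
FPKM (vertical axis, own scale per gene, from 0) of the 9 genes in the 6 lines (horizontal axis), 1 library per bar, blue for the C4-2B lineage and red for the DU145 lineage. HLA-B falls from 64.1 to 17.3 from C4-2B to CabR, while PSMB8 stands at 0.997 in DU145 and at 25.4 and 25.9 in DTXR and CTXR.

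HLA-B (ENSG00000234745, chromosome 6, 31269491 to 31357188, minus strand, GRCh38), a classical heavy chain that presents peptides to T cells, measured 64.1 FPKM in C4-2B, then 41.5 for TaxR and 17.3 for CabR. In the other lineage it measured 168.6 FPKM in DU145, then 236 for DTXR and 224 for CTXR. Each successive line of the C4-2B lineage had less, and all DU145-lineage libraries lay above all C4-2B-lineage libraries. The log2 ratio to the parent was -0.61 for TaxR, -1.83 for CabR, 0.48 for DTXR and 0.41 for CTXR, so HLA-B was lower in CabR alone. In linear terms C4-2B had 3.69 times the HLA-B level of CabR.

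HLA-C (ENSG00000204525, chromosome 6, 31268749 to 31272130, minus strand), the other classical heavy chain among the members and a ligand of killer cell receptors on natural killer cells, measured 161 FPKM in C4-2B, then 128 for TaxR and 53.3 for CabR. It measured 128 FPKM in DU145, then 183 for DTXR and 225 for CTXR. The lineages overlapped at this gene, since C4-2B stood above DU145 and TaxR level with it. Against the parent its log2 ratios were -0.34 for TaxR, -1.58 for CabR, 0.52 for DTXR and 0.81 for CTXR. From TaxR to CabR HLA-B and HLA-C were lower by nearly equal proportions, with log2 ratios of -1.21 and -1.24. Their quotient, HLA-B FPKM over HLA-C FPKM, was 0.326 in TaxR and 0.325 in CabR, against 0.397 in C4-2B. In the DU145 lineage it lay between 0.994 and 1.32. Whether differences of HLA sequence between the lineages affected the quotient was not tested.

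HLA-E (ENSG00000204592, chromosome 6, 30489467 to 30494205, plus strand), a non-classical heavy chain that presents leader peptides of other class I chains to natural killer cell receptors, had 20.9, 12.2 and 9.10 FPKM across C4-2B, TaxR and CabR. It had 47.7, 58.7 and 56.0 FPKM across DU145, DTXR and CTXR. The log2 ratio was -0.73 from C4-2B to TaxR and -0.39 from TaxR to CabR, and CabR was lower than C4-2B at -1.11. The DU145 sublines stood at log2 ratios of 0.30 and 0.23, the smallest positive values among the 4 heavy chains.

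HLA-F (ENSG00000204642, chromosome 6, 29722775 to 29738528, plus strand), a non-classical heavy chain that can appear on cells without peptide, was the least abundant heavy chain, with 6.14, 2.82 and 1.94 FPKM across C4-2B, TaxR and CabR. It had 14.1, 18.7 and 23.3 FPKM across DU145, DTXR and CTXR. Its log2 ratio to the parent was -0.90 for TaxR, -1.28 for CabR, 0.38 for DTXR and 0.68 for CTXR.

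All 4 heavy chains were thus lower in CabR against C4-2B and none in TaxR, and B2M, TAP1, TAP2, PSMB8 and PSMB9 were lower in neither. That is 4 of 9 members lower in CabR, where 6.2% of all measured genes were lower, and 0 of 9 lower in TaxR, where 5.64% were. No member was higher in TaxR or CabR, where 2.52% and 2.67% of measured genes were. The median log2 ratio of the members was -0.34 in TaxR and -0.76 in CabR, beside -0.0018 and -0.0021 over all measured genes. With a pseudocount of 5, HLA-E and HLA-F in CabR (-0.88 and -0.68) no longer passed the rule, and HLA-F passed it in TaxR with a pseudocount of 0.1 (-1.10) or with equal totals (-1.04).

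B2M (ENSG00000166710, chromosome 15, 44711487 to 44718877, plus strand), the light chain that every class I molecule needs to reach the surface, measured 289 FPKM in C4-2B, then 203 for TaxR and 171 for CabR. It measured 454 FPKM in DU145, then 647 for DTXR and 1526 for CTXR. It was the most abundant member in each library, and CTXR stood far above the other 5 lines. The log2 ratio was -0.51 in TaxR and -0.76 in CabR, neither past the size rule, 0.51 in DTXR and 1.75 in CTXR. From DTXR to CTXR alone it was higher at a log2 ratio of 1.24.

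Since FPKM are scaled for length, the light chain can be set against the summed level of the 4 heavy chains within a library, a quotient that does not depend on how libraries were scaled. B2M per summed heavy chain was 1.15 in C4-2B, then 1.10 for TaxR and 2.09 for CabR. In the DU145 lineage it was 1.27 in DU145, then 1.30 for DTXR and 2.89 for CTXR. The quotient thus stood at 1.10 to 1.30 in the parental and docetaxel-resistant lines and above 2 in both cabazitaxel-resistant lines. The summed heavy chains had 184 FPKM in TaxR and 81.7 in CabR, and 497 in DTXR and 528 in CTXR. The sum holds these 4 heavy chains only.

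**Figure D2:**
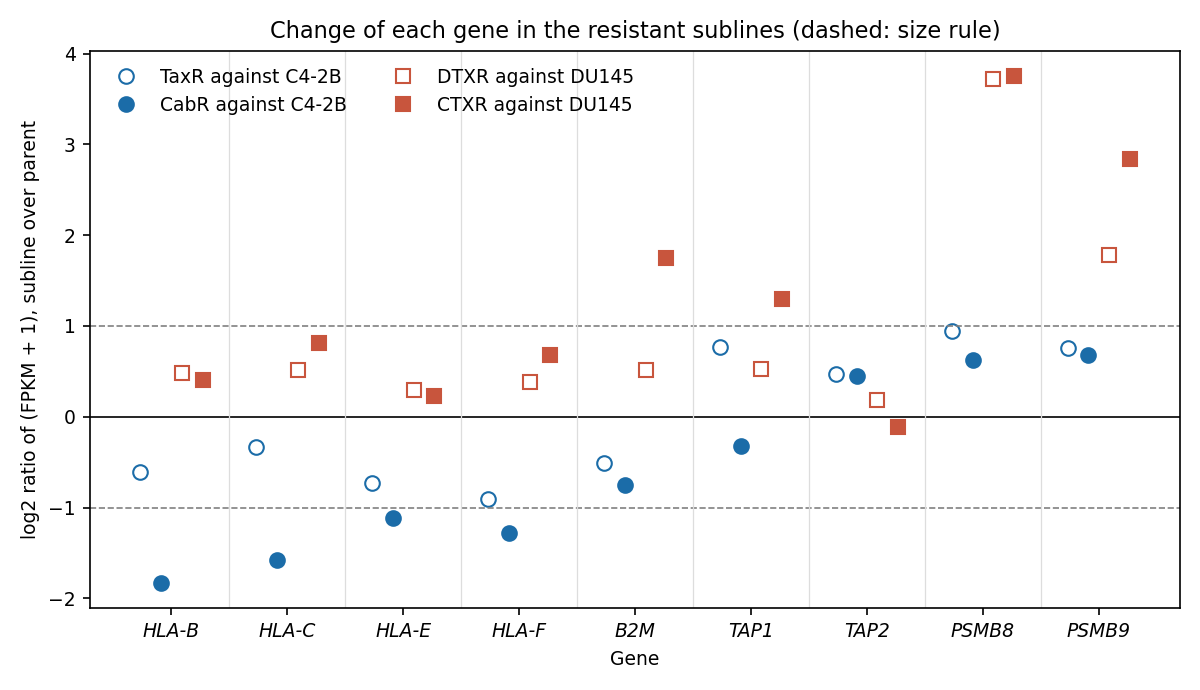
Log2 ratio of (FPKM + 1) of each subline over its parent (vertical axis) for the 9 genes (horizontal axis), with circles for TaxR (open) and CabR (filled) and squares for DTXR (open) and CTXR (filled), and dashed lines at the size rule of 1. Heavy chains and B2M lie below 0 in the C4-2B lineage and above 0 in the DU145 lineage. PSMB8 and PSMB9 lie above 0 in all 4 sublines, but from values near or below 1 FPKM in the C4-2B lineage.

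TAP1 (ENSG00000168394, chromosome 6, 32845209 to 32853978, minus strand), a subunit of the peptide transporter, measured 6.91 FPKM in C4-2B, then 12.5 for TaxR and 5.31 for CabR. It measured 18.6 FPKM in DU145, then 27.2 for DTXR and 47.1 for CTXR. In the C4-2B lineage TaxR was the highest line, with a log2 ratio of 0.77 to C4-2B, and CabR was lower than TaxR at -1.09. In the DU145 lineage each successive line had more TAP1, and CTXR was higher than DU145 at 1.29. TAP2 (ENSG00000204267, chromosome 6, 32821833 to 32838780, minus strand), its partner subunit, had 11.4, 16.3 and 15.9 FPKM across C4-2B, TaxR and CabR and 34.4, 39.1 and 31.8 FPKM across DU145, DTXR and CTXR. No log2 ratio of TAP2 exceeded 0.48 in size and TAP2 was called in no comparison. TAP1 per TAP2 was 0.604, 0.766 and 0.333 in C4-2B, TaxR and CabR, and 0.541, 0.696 and 1.48 in DU145, DTXR and CTXR. In the annotation 32.3% of the exonic bases of TAP2 are shared with an overlapping gene on the same strand, ENSG00000250264, and 80.2% of the 50-base stretches of its transcript also occur in another gene. The TAP2 values and the TAP1 per TAP2 quotient are therefore uncertain.

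PSMB8 (ENSG00000204264, chromosome 6, 32840717 to 32844703, minus strand), the immunoproteasome subunit that replaces PSMB5, measured 0.997 FPKM in DU145, then 25.4 for DTXR and 25.9 for CTXR. It measured 0.125 FPKM in C4-2B, then 1.16 for TaxR and 0.737 for CabR. Both resistant DU145 sublines were higher than DU145, with log2 ratios of 3.73 and 3.75, and a log2 ratio of 0.03 from DTXR to CTXR, which was -0.07 with libraries scaled without mitochondrial genes. The level thus rose between DU145 and DTXR and not further. PSMB9 (ENSG00000240065, chromosome 6, 32844136 to 32859585, plus strand), which replaces PSMB6, measured 2.68 FPKM in DU145, then 11.7 for DTXR and 25.3 for CTXR. Its C4-2B value was a listed 0, and it had 0.693 FPKM in TaxR and 0.602 in CabR. PSMB9 rose at both steps in the DU145 lineage, by log2 ratios of 1.78 from DU145 to DTXR and 1.05 from DTXR to CTXR. The second of these fell short of the rule with a pseudocount of 5 (0.86) and with libraries scaled without mitochondrial genes (0.96). In the annotation 618 exonic bases of PSMB8 (20.6%) overlap the antisense gene PSMB8-AS1 on the opposite strand, and 139 overlap PSMB9, also on the opposite strand. PSMB9 shares 174 exonic bases (5.66%) with PSMB8-AS1 on the same strand. Whether counting used the strand is not stated, so reads of PSMB8 and PSMB9 may be divided with these genes.

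In the DU145 lineage 2 of 9 members were higher in DTXR (PSMB8 and PSMB9), where 5.37% of measured genes were. In CTXR 4 of 9 were higher (B2M, TAP1, PSMB8 and PSMB9), where 7.45% of measured genes were. No member was lower in either subline, where 5.1% and 5.47% of measured genes were. The median log2 ratio of the members was 0.51 in DTXR and 0.81 in CTXR, beside 0.0 over all measured genes in both.

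The lines can also be compared by the step from docetaxel to cabazitaxel resistance. From TaxR to CabR 3 of 9 members were lower (HLA-B, HLA-C and TAP1) and none higher, where 1.84% of measured genes were lower and 1.75% higher. All 9 log2 ratios of that step were below 0, with a median of -0.38, but that of TAP2 (-0.03) turned to 0.03 with equal totals and to 0.0011 with libraries scaled without mitochondrial genes. From DTXR to CTXR 2 of 9 were higher (B2M and PSMB9) and none lower, where 7.29% of measured genes were higher and 5.25% lower, and the median was 0.30. TAP1 in CabR against TaxR no longer passed the rule with a pseudocount of 5 (-0.76).

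The mRNA of the inducible proteasome subunits can be set against that of the constitutive ones within each library. Which subunits were built into proteasomes was not measured. The constitutive mRNAs did not fall in the DU145 lineage: across DU145, DTXR and CTXR PSMB5 had 65.2, 117 and 115 FPKM. PSMB6 had 122, 185 and 211 FPKM there. PSMB8 per PSMB5 was 0.125% in C4-2B, then 1.06% for TaxR and 0.676% for CabR. It was 1.53% in DU145, then 21.7% for DTXR and 22.5% for CTXR. PSMB9 per PSMB6 was 0 in C4-2B, then 0.382% for TaxR and 0.316% for CabR, and 2.21%, 6.34% and 11.97% in DU145, DTXR and CTXR. The remaining inducible subunit, PSMB10, differed from both: per PSMB7 it was 39.8%, 39.6% and 27.6% in C4-2B, TaxR and CabR and 9.09%, 8.39% and 12.3% in DU145, DTXR and CTXR.

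**Figure D3:**
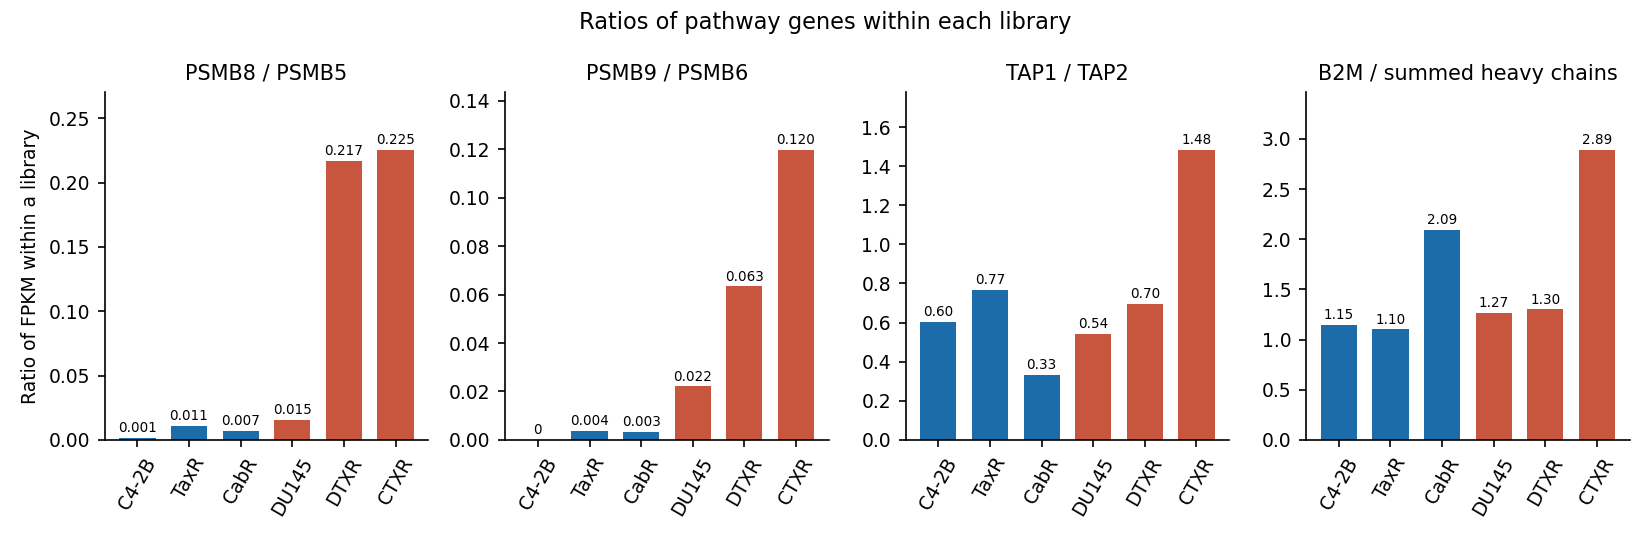
Quotients of FPKM within each library (vertical axes, from 0) in the 6 lines (horizontal axes), blue for the C4-2B lineage and red for the DU145 lineage, 1 library per bar. PSMB8 per PSMB5 reaches 0.217 and 0.225 in DTXR and CTXR, and B2M per summed heavy chain (HLA-B, HLA-C, HLA-E and HLA-F) is highest in CabR and CTXR, at 2.09 and 2.89.

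The size of the opposite courses was also estimated in limma, as the change from parent to resistant sublines in the DU145 lineage minus that in the C4-2B lineage. The sublines of a lineage served as the only repeats of the resistant state, which leaves 2 residual degrees of freedom, and they are successive rather than independent. The estimates were 1.66 for HLA-B, 1.62 for HLA-C, 1.18 for HLA-E, 1.62 for HLA-F and 1.76 for B2M on the log2 scale. For PSMB8 the estimate was 2.96 with a 95% confidence interval of 1.87 to 4.04, for PSMB9 1.59 (-0.47 to 3.65), for TAP1 0.69 (-1.76 to 3.13) and for TAP2 -0.43 (-1.30 to 0.45). No member passed limma's test after Benjamini-Hochberg adjustment over all measured genes, with adjusted p-values of 0.34 for PSMB8 and 0.44 to 0.84 for the other 8. Unadjusted p-values were 0.0018 for PSMB8, 0.020 for HLA-F and 0.028 for HLA-E, and 0.098 to 0.48 for the rest in limma. The test called 0 of 17436 genes (0.0%) at an adjusted p under 0.05, and 1660 genes (9.52%) had an unadjusted p under 0.05. Leaving out 1 subline leaves its lineage with 1 resistant line. The spread then comes from the sublines of the other lineage alone, so counts of calls from such fits are not used. In simulated data of the same size the test recovered 3 of 100 genes with a log2 difference of 3 and 0 of 100 with a difference of 1, calling 2 of 17236 unchanged genes. The simulated noise was independent between lines, and its variance averaged that of the gene and the mean of all genes. Genes with a small spread thus had more noise than in the data. Under that noise the test could detect few differences of those sizes. PSMB9 turned to -0.26 with a pseudocount of 0.1.

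The level of the genes, as distinct from their change, differed between the lineages. In 7 of 9 members every DU145-lineage library lay above every C4-2B-lineage library, a pattern of 27.2% of measured genes, and the exceptions were HLA-C and PSMB8. PSMB9, counted among the 7, reached 1 FPKM only in the DU145 lineage. It could thus be measured only by being high there, so its order and its level difference are descriptions. In limma, with 3 lines per lineage that share descent, the mean log2 level was higher in the DU145 lineage by 2.49 ± 0.42 (SE) for HLA-B, 1.94 ± 0.29 for HLA-E, 2.16 ± 0.35 for HLA-F and 1.82 ± 0.42 for B2M. It was higher by 1.77 ± 0.39 for TAP1, 1.22 ± 0.20 for TAP2, 2.80 ± 0.93 for PSMB8 and 2.94 ± 0.64 for PSMB9. Of the 8 members other than PSMB9, 7 passed limma's test, with adjusted p-values of 0.0013 to 0.042. Of all measured genes 20.2% passed in this direction, 22.0% in the other and 42.2% in either. Unadjusted p-values under 0.05 were found for 51.7% of measured genes. HLA-C did not pass, at 0.75 ± 0.40 with an adjusted p of 0.17 in limma and a 95% interval of -0.19 to 1.68. Effects of HLA sequence differences between the lineages on the levels of the heavy chains were not tested. The mitochondrial share also differed between the lineages, with 17.9% to 27.9% in the C4-2B lineage and 35.3% to 40.7% in the DU145 lineage. Scaling without mitochondrial genes left the same 7 members past the test. Calls of B2M and PSMB8 depended on single libraries. In limma the adjusted p of B2M was 0.057 without TaxR and 0.057 without CabR. That of PSMB8 was 0.16, 0.11, 0.12, 0.16 and 0.18 without C4-2B, TaxR, CabR, DTXR and CTXR. Over the alternatives that kept a filter on low values the adjusted p in limma ranged from 0.0045 to 0.057 for B2M and from 0.0011 to 0.18 for PSMB8.

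**Figure D4:**
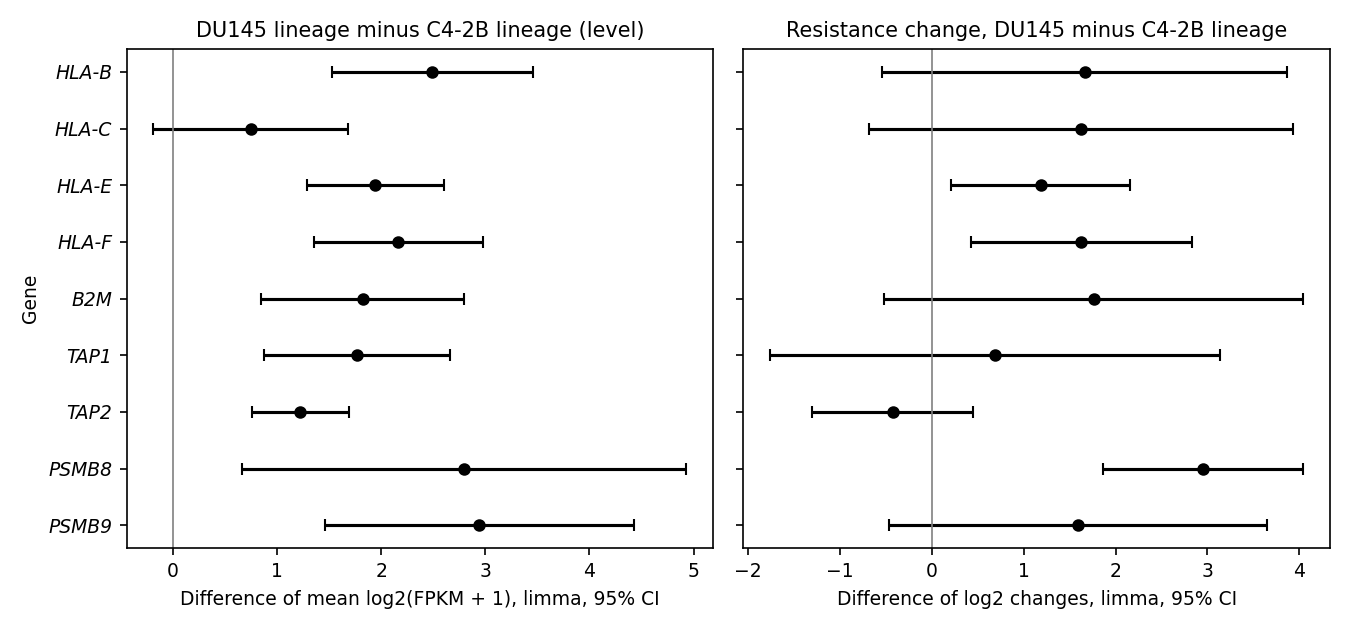
Limma estimates with 95% confidence intervals (horizontal axes, log2 scale) for the 9 genes (vertical axis), for the level in the DU145 lineage minus that in the C4-2B lineage (left) and for the change with resistance in the DU145 lineage minus that in the C4-2B lineage (right). Of the level estimates only that of HLA-C has an interval that includes 0, while 6 of the 9 change estimates do. The level estimate of PSMB9 is a description, since it reached 1 FPKM only in the DU145 lineage.

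The 7 other genes of peptide loading and trimming had median log2 ratios of 0.12 for TaxR, -0.58 for CabR, 0.65 for DTXR and 0.04 for CTXR, beside -0.0018, -0.0021, 0.0 and 0.0 over all measured genes. Of these 7 genes 3 were higher in DTXR and 2 in CTXR, none was called in CabR against C4-2B, and 1 was higher in TaxR. Among all measured genes 5.37% were higher in DTXR, 7.45% in CTXR and 2.52% in TaxR, and in CabR 2.67% were higher and 6.2% lower. Tapasin (TAPBP), which bridges TAP and the heavy chain, had 30.3, 32.9 and 18.4 FPKM across C4-2B, TaxR and CabR and 29.4, 63.6 and 48.6 FPKM across DU145, DTXR and CTXR, and was higher in DTXR alone. Its relative TAPBPL, a peptide editor, was the gene higher in TaxR (2.05 and 5.18 FPKM in C4-2B and TaxR) and was higher in both DU145 sublines (0.309, 2.30 and 2.75 FPKM). ERAP2, an aminopeptidase that trims peptides in the endoplasmic reticulum, measured 0.640 FPKM in DU145, then 5.83 for DTXR and 2.94 for CTXR and was higher in both. ERAP1, the related trimming enzyme, was lower in CTXR than in DTXR (12.9 and 5.61 FPKM). The general chaperones CALR, CANX and PDIA3 passed the rule in no comparison. CALR had 947, 711 and 633 FPKM in the C4-2B lineage and 274, 303 and 276 FPKM in the DU145 lineage.

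Among 9 measured proteasome subunits and activators 1 was higher in DTXR and 2 in CTXR, where 5.37% and 7.45% of all measured genes were. None was called in TaxR or CabR. The called genes were the subunits of the interferon-inducible PA28 activator, PSME1 and PSME2. PSME1 measured 13.5 FPKM in DU145, then 38.9 for DTXR and 46.0 for CTXR, and was higher in both. PSME2 had 16.6, 31.8 and 47.0 FPKM, and was higher in CTXR. The constitutive subunits PSMB5, PSMB6 and PSMB7 passed the rule in no comparison, with 65.2 to 117 FPKM for PSMB5 across the 6 lines.

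Of 19 measured regulators of class I transcription, 2 were higher in DTXR, 3 in CTXR, 1 in CabR and none in TaxR, each against its parent. Among all measured genes 5.37%, 7.45%, 2.67% and 2.52% were higher in these sublines. None of the regulators was lower. IRF9, the DNA-binding part of the ISGF3 complex of type I interferon signalling, had 2.94, 3.40 and 7.28 FPKM across C4-2B, TaxR and CabR and 2.99, 6.98 and 15.05 FPKM across DU145, DTXR and CTXR. It was higher in CabR, where the heavy chains were lower, as well as in both DU145 sublines. Its partner STAT2 was higher in CTXR (20.7 FPKM in DU145 and 50.9 in CTXR), as was the type I receptor chain IFNAR2 (12.7 and 33.4). IRF2, a member of the interferon regulatory factor family, was higher in DTXR (2.29 and 7.75 FPKM). NLRC5, the class I transactivator, stayed between 0.759 and 2.27 FPKM in all 6 lines and passed the rule in no comparison. JAK1, the kinase shared by the interferon receptors, had 3.33, 1.27 and 1.19 FPKM across C4-2B, TaxR and CabR and 19.0, 38.6 and 12.2 FPKM across DU145, DTXR and CTXR. Its log2 ratios of -0.93 in TaxR, -0.98 in CabR and 0.99 in DTXR fell just short of the rule, and it was lower in CTXR than in DTXR at -1.59. In that comparison IRF9, STAT2 and SOCS1, a feedback inhibitor of JAK signalling (0.114 FPKM in DTXR, 1.47 in CTXR), were higher. The level of JAK1 was higher in the DU145 lineage by 2.97 ± 0.44 (SE) with an adjusted p of 0.0014 in limma, and that of IRF1, a direct activator of class I promoters, by 1.28 ± 0.22 with an adjusted p of 0.0027.

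Of 9 measured class I-like molecules and stress ligands none was called in DTXR against DU145, and 2 were higher in CTXR. In TaxR 2 were lower, and in CabR 2 were lower and 1 higher. Among all measured genes 7.45% were higher in CTXR, 5.64% lower in TaxR, and 6.2% lower and 2.67% higher in CabR. MR1, which presents vitamin B metabolites on a B2M-bound heavy chain, had 1.61, 1.63 and 0.188 FPKM across C4-2B, TaxR and CabR and 2.09, 2.51 and 7.96 FPKM across DU145, DTXR and CTXR. It was lower in CabR and higher in CTXR, both also against the docetaxel-resistant line. FCGRT, the B2M-bound neonatal Fc receptor, was higher in both CabR (0.334 FPKM in C4-2B, 3.75 in CabR) and CTXR (21.4 and 45.2 FPKM in DU145 and CTXR). AZGP1, a secreted class I-like glycoprotein of prostate epithelium, had 179, 76.6 and 42.1 FPKM across C4-2B, TaxR and CabR and at most 0.341 FPKM in the DU145 lineage. ULBP2, a ligand of the activating receptor NKG2D, was lower in TaxR (6.51 and 1.61 FPKM in C4-2B and TaxR), and MICA, another NKG2D ligand, passed the rule in no comparison.

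MHC class II genes were counted as well, most of them from the same region, while CIITA and CD74 lie on chromosomes 16 and 5. The measured ones had median log2 ratios of 0.22 for TaxR, -0.31 for CabR, 0.31 for DTXR and 0.995 for CTXR. For the members these medians were -0.34, -0.76, 0.51 and 0.81. In the C4-2B lineage all measured class II genes but HLA-DMA lay near or below 1 FPKM. The class II median for TaxR was the ratio of HLA-DRB1, with 0 FPKM in C4-2B and 0.163 in TaxR. That for CabR was the ratio of HLA-DPA1, with 0.236 FPKM in C4-2B and 0 in CabR. Both of these medians are therefore uncertain. Of 11 listed genes 5 were measured, of which 1 was lower in TaxR and CabR and 2 were higher in CTXR. Among all measured genes 5.64% were lower in TaxR, 6.2% lower in CabR and 7.45% higher in CTXR. CIITA, the class II transactivator, reached at most 0.00959 FPKM in any line. HLA-DMA, which encodes a peptide exchange factor chain of class II, had 10.4, 3.88 and 1.81 FPKM across C4-2B, TaxR and CabR and 17.9, 35.2 and 61.0 FPKM across DU145, DTXR and CTXR. It was lower in both C4-2B sublines and higher in CTXR, so its course was that of the heavy chains with larger ratios. The other gene higher in CTXR was HLA-DRB1, a class II beta chain with close paralogs among which reads may be divided. It had 2.56, 3.42 and 16.8 FPKM across DU145, DTXR and CTXR, a log2 ratio of 2.32 for CTXR against DU145, and 0, 0.163 and 0 FPKM across C4-2B, TaxR and CabR. HLA-DMB, the partner chain of HLA-DMA, had 9.48, 7.42 and 14.7 FPKM across DU145, DTXR and CTXR and at most 0.403 FPKM in the C4-2B lineage.

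Neighbouring genes were counted in the same way. Apart from B2M the members lie on chromosome 6 between 29722775 and 32859585. Of the 82 other measured coding genes within that span 4 were lower and 0 higher in CabR against C4-2B, with a median log2 ratio of -0.24. In CTXR against DU145 6 were higher and 6 lower, with a median of -0.08. Counts for the other comparisons were 3 higher and 3 lower in TaxR and 0 higher and 5 lower in DTXR. Among all measured genes 6.2% were lower and 2.67% higher in CabR, and 7.45% higher and 5.47% lower in CTXR. In TaxR 2.52% were higher and 5.64% lower, and in DTXR 5.37% and 5.1%.

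The genes most like the members across the 6 lines were ranked by Pearson's r between their log2(FPKM + 1), centred within lineage, and the mean centred value of the 9 members. The candidates were 3217 coding genes past the size rule in at least 1 subline. With 6 libraries and 2 lineage means removed, only 4 values are free, and r is given as a description. The first 10 were DNAJC12, FBXO8, STYK1, ARHGEF26, CCDC167, SMOX, CASP10, ZNF280A, AKR1A1 and OCIAD2, with r from 0.98 to 0.99. DNAJC12, a co-chaperone gene, had 5.24, 4.28 and 1.99 FPKM across C4-2B, TaxR and CabR and 4.68, 14.1 and 21.2 FPKM across DU145, DTXR and CTXR. CASP10, an initiator caspase of death receptor signalling, had 1.04, 1.02 and 0.294 FPKM and 0.118, 2.93 and 3.66 FPKM. SMOX, spermine oxidase, had 2.49, 2.53 and 1.10 FPKM and 12.8, 35.8 and 74.0 FPKM. Among the members themselves, TAP2 was the only one with a negative r to the mean of the other 8 (-0.28), and B2M had the highest (0.82).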

How the data were processed

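RNA of 6 lines was sequenced as stranded mRNA libraries, per the labels' protocols. The authors deposited 1 FPKM table per library, per the file headers. HISAT, StringTie, Cuffnorm and GRCh38 are named in the submitters' processing notes. Their versions, the annotation, the strand setting and any joint scaling were not given there. FPKM are model estimates, which divide the reads of close paralogs and overlapping genes. In the annotation, genes on the opposite strand overlap 17.8% of the exonic bases of HLA-B and 9.49% of those of TAP1. At HLA-F such genes overlap 16.1%, 12.3% and 5.92%, and HLA-B shares 35 exonic bases with HLA-C on the same strand. Whether sequence differences between the lines at the HLA genes affected their FPKM was not tested. A listed 0 may also be an estimate that failed. In the GENCODE release 29 transcripts, 2.54% of the 50-base stretches of HLA-B, 6.79% of HLA-C, 5.13% of HLA-E, 1.7% of HLA-F, 1.07% of TAP1 and 80.2% of TAP2 also occur in another gene. Of 60658 identifiers 56550 matched the gene symbol table and 57047 GENCODE, which gave coordinates.

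Values were used as log2(FPKM + 1). Groups came from the phenotype labels. Members and lists were chosen with earlier results of these data known. All 9 members are named, list genes past the size rule up to 4 per list and comparison, and the 10 genes most like the members; other list genes were named after their values were seen. Some genes of the pathway and of the marker lists are not reported here. Limma used an intensity trend, two-sided tests and Benjamini-Hochberg adjustment over 17436 genes. In simulated data with noise of the same kind as for the change, the level comparison recovered 100 of 100 genes with a log2 difference of 3 and 11 of 100 with 1. It called 19 of 17236 unchanged genes. Nothing says that lines are separate cultures of a group, so p-values measure the spread between these lines. Other pseudocounts, filters, scalings, size rules, fits without trend, removal of the DU145 share from TaxR and leaving out libraries were tried. Python 3.11.15 (numpy 2.4.6, pandas 2.3.3, matplotlib 3.10.9) and R 4.3.3 with limma 3.58.1 were used.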

Additional observations from a re-analysis of the deposited data

Results flagged for a closer look

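HLA-B, HLA-C, HLA-E, HLA-F and B2M drew attention because both sublines of C4-2B lay below their parent and both sublines of DU145 above theirs. The limma estimate of the difference between the lineages was 1.66 for HLA-B, 1.62 for HLA-C, 1.18 for HLA-E, 1.62 for HLA-F and 1.76 for B2M on the log2 scale, with adjusted p-values of 0.60, 0.63, 0.47, 0.44 and 0.60, so the difference was not past the test for any of them.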

How the results depend on the processing

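The count of members on opposite courses by sign was 5 under each of the other scalings. The remaining alternatives could not lower it. A pseudocount does not change a sign, and these 5 genes reached 1 FPKM in all 6 libraries. Removing a DU145 share could only lower them in TaxR, since each had more FPKM in DU145. With a pseudocount of 0.1, members higher in TaxR and in CabR were 2 each (PSMB8 and PSMB9, the latter against a listed 0) and 1 was lower in TaxR, as it was with equal totals. Of the 17436 measured genes 1228 were then higher in TaxR, 1209 higher in CabR and 1917 lower in TaxR. With equal totals 1306 genes were lower in TaxR. With a pseudocount of 5, members lower in CabR against C4-2B were 2 and members higher in CTXR against DTXR 1, where 326 and 388 of all measured genes were. Requiring 1 FPKM in all 6 libraries removes PSMB8 and PSMB9, which left 0 members higher in DTXR, 2 in CTXR, 1 in CTXR against DTXR and 0 above the parent in all 4 sublines; the level test then called 4602 genes, since fewer were tested. Under that filter 345 genes were higher in DTXR, 504 in CTXR and 489 in CTXR against DTXR. Scaling without mitochondrial genes left 1 member higher in CTXR against DTXR, where 1140 of all genes were. With a 1.5-fold rule 3 members were higher and 3 lower in TaxR, 2 higher in CabR, and 3 lower in CabR and higher in CTXR. With a rule of 1.5 on the log2 scale 2 were lower in CabR against C4-2B, 0 lower in CabR against TaxR and 0 higher in CTXR against DTXR. How many of all measured genes passed either changed size rule was not counted, so these member counts have no background. Without a filter the test of opposite courses called 681 genes and 1 member (PSMB8, adjusted p 0.039 in limma), but 33117 of the 60658 genes are then at 0 in every library, and limma warned that its variance estimates are unreliable there, so that call is not used. Over the other alternatives the adjusted p of PSMB8 ranged from 0.145 to 0.52. Leaving out 1 subline gave 0 to 442 genes; leaving out C4-2B or DU145 leaves no estimate. No paired analysis was possible because each line has 1 library, so the groups share a single replicate number. Without sequencing depth, values under 1 FPKM such as those of PSMB9 in the C4-2B lineage cannot be told from noise.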
